A study of Schizosaccharomyces pombe with 4 samples.

Results

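The 5S ribosomal RNA (rRNA) genes of fission yeast, Schizosaccharomyces pombe, were followed as a set in a chromatin immunoprecipitation (ChIP) study of the recombination protein Rad52. The set was taken by position only: every gene annotated as 5S rRNA in the RefSeq annotation of build ASM294v3, outside the rDNA arrays and the right part of chromosome I, where the array coordinates no longer match the build, with at least 1 array probe centred within 250 bp of the gene. All 32 such genes had a probe, out of 10401 annotated genes with a probe in the same regions. No measured signal entered this rule, although the set was chosen with earlier results of these data known. They lay 8 on chromosome I, 16 on chromosome II and 8 on chromosome III, and 73 probes covered them, with 2 probes for 22 of the genes and between 1 and 4 for the others. In all, 4 arrays were hybridised, each pairing a ChIP sample in Cy3 with an input sample in Cy5. The ChIP samples came from cdc25-22 rif1Δ rad3Δ cells on 2 arrays and from cdc25-22 rif1Δ cells on 2 arrays. The value used throughout is the log2 of ChIP over input, averaged over the probes of a gene and centred on the array median, so that 0 is the typical probe of the same array.

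All 4 arrays shared the cdc25-22 background, a temperature-sensitive allele of the mitotic activator Cdc25 with which cultures are held in G2 and let go together. Per the labels, cultures spent 4 h at 36.5 °C, were returned to 25 °C and then received 6 mM hydroxyurea, which starves replication forks of nucleotides. Rif1 restrains replication origins, and Rad3, the fission yeast relative of human ATR, is the kinase that starts the replication checkpoint. Deletion of rif1 was shared by both strains, so a comparison of them asks what loss of Rad3 adds, and no strain with Rif1 was analysed here.

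In fission yeast the 5S genes are not part of the rDNA repeats but are spread singly over the chromosome arms. RNA polymerase III transcribes them. Transcription factor TFIIIA binds a control region inside the gene and brings in TFIIIC, TFIIIC places TFIIIB upstream of the start, and a run of T in the coding strand ends the transcript. Fission yeast polymerase III genes also use a TATA element upstream of the start. The product, 5S rRNA, joins the large ribosomal subunit with the proteins L5 and L11. In budding yeast and fission yeast, genes of this class, tRNA genes foremost, are known places where replication forks slow, and Rad52 acts in repair by homologous recombination.

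Median processed signals were 1062 and 1020 in the ChIP channel of the rif1Δ rad3Δ arrays and 1015 and 1106 on the rif1Δ arrays, with 96.2% to 99.8% of spots above background by the scanner software's own call. The deleted rif1 gave 0.867% to 3.48% of a channel's median signal on every array. ChIP signal over rad3 was 6.11% and 1.23% of the median in rif1Δ rad3Δ, against 63.2% and 79.7% in rif1Δ. The input of the rif1Δ rad3Δ arrays, labelled as cdc25-22 alone, held rad3 at 1.82% and 0.972% and rif1 at 1.84% and 0.867% of its median, which goes against that label. Replicate 1 of both strains shared slide 1. For replicate 2 of rif1Δ rad3Δ alone the file header names a ChIP protocol, and for the other arrays it names CGH. No ChIP without Rad52 was analysed here, so signal that comes with the protein and signal that comes without it cannot be told apart. Nothing in the labels says that replicates were separate cultures, so the p-values cover only how far these arrays spread, and that spread may be technical.

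Of the 32 genes, 20 had the same 119-base transcribed core, 10 more differed from it at 1 to 3 bases, and 2 had diverged from it. The genes printed here are those the results turn on, with 50 bases upstream, the core and 30 bases downstream in the direction of transcription, from RefSeq build ASM294v3. Capitals mark each TATA upstream and the first TTTT downstream. SPRRNA.39 (chrII:2032360-2032558, + strand) and SPRRNA.27 (chrII:1199877-1200075, + strand) show the common core at a gene with high Rad52 signal and at the lowest gene in rif1Δ rad3Δ, and SPRRNA.07 (chrIII:2308136-2308334, - strand) carries it at a gene called different between strains. SPRRNA.40 (chrII:2442671-2442869, - strand), SPRRNA.35 (chrII:2322683-2322881, + strand) and SPRRNA.11 (chrI:456477-456675, + strand) have 1 or 2 changed bases in the core. The values of SPRRNA.40, SPRRNA.35, SPRRNA.11, SPRRNA.07 and SPRRNA.41 rest partly on dim probes, as given further on. SPRRNA.54 (chrII:3096938-3097134, - strand) and SPRRNA.41 (chrII:3171542-3171733, - strand) are the diverged pair.
SPRRNA.39: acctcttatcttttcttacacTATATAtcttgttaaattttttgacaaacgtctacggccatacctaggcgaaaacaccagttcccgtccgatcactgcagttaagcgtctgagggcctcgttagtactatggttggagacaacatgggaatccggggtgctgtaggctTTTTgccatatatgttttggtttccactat
SPRRNA.27: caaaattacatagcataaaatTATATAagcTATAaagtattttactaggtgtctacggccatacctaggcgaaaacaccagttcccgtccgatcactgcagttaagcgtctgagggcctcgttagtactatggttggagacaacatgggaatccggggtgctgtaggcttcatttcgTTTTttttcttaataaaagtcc
SPRRNA.07: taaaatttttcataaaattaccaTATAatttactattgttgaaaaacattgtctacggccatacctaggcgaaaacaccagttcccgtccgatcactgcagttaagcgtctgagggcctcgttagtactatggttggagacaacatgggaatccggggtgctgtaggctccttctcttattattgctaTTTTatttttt
SPRRNA.40: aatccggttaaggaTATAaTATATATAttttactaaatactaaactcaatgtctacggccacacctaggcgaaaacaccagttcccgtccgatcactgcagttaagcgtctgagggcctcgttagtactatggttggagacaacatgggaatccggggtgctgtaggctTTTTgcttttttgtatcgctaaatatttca
SPRRNA.35: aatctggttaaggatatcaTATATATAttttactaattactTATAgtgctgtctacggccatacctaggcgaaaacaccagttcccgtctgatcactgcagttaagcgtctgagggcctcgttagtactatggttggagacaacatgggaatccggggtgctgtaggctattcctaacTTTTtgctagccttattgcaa
SPRRNA.11: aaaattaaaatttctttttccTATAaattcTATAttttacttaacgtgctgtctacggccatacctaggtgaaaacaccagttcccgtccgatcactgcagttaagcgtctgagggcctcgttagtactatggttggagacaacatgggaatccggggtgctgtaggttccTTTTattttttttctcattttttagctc
SPRRNA.54: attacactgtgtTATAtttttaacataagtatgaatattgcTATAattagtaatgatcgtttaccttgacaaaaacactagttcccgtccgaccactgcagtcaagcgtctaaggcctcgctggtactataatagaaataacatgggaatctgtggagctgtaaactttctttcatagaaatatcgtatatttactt
SPRRNA.41: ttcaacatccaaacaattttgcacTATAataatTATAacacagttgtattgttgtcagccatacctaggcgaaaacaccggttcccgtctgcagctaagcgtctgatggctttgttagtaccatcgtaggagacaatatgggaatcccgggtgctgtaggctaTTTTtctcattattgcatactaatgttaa

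Positions in the core count from 1 at its 5′ end, and the base of the common core is written first. SPRRNA.40 and SPRRNA.30 carried T12C, SPRRNA.35 carried C40T, and SPRRNA.15 carried C15G and A74G. C20T was found in SPRRNA.11, SPRRNA.04 and SPRRNA.05, and C118T in SPRRNA.11, SPRRNA.12 and SPRRNA.37. SPRRNA.54 kept 88 of the 119 bases (74.0%) and SPRRNA.41 kept 98 (82.4%). TATA, which reads the same on both strands, stood within 50 bases upstream of 25 of the 32 genes (78.1%), against 81.6% of tRNA genes on the chromosome arms and 32.2% of all annotated genes. TTTT on the transcribed strand stood within 30 bases downstream of 30 genes (93.8%), against 96.8% of arm tRNA genes and 31.7% of all genes. SPRRNA.54 and SPRRNA.38 lacked it in that window. Upstream stretches were rich in A and T, with a median of 80% and a range of 70% to 86%.

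Copies of an upstream stretch recurred between genes. Compared base by base, the 496 pairs of genes shared a median of 20 of 50 upstream bases. SPRRNA.03 and SPRRNA.04 shared all 50, which hold no TATA and are printed once, and SPRRNA.35 and SPRRNA.40 shared 40, as their lines above show.
SPRRNA.03 and SPRRNA.04: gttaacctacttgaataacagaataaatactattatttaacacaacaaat
SPRRNA.28 and SPRRNA.29 shared 35, with 29 in a row next to the core. The pair SPRRNA.35 and SPRRNA.40 were both called enriched in both strains. However, the SPRRNA.35 probe that overlaps the gene matched 50 bases at the SPRRNA.40 locus, so the readings are not independent. That probe was also dim, and without it SPRRNA.35 averaged 0.35 in rif1Δ (limma, adjusted p = 0.0907) and was not called there. Neither SPRRNA.03 nor SPRRNA.04 was called in either strain.

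Rad52 ChIP signal lay above the array median at most 5S genes in both strains. In rif1Δ rad3Δ, 21 of 32 passed the test against 0 (limma, Benjamini-Hochberg adjusted p below 0.05 over all 10401 genes), where 28.7% of all genes were called above 0. In rif1Δ, again 21 of 32 passed, where 4.47% of all genes were called above 0. Those counts are each 65.6% of the set. None passed below 0 in either strain. At an unadjusted p below 0.05, 0 lay below 0 in rif1Δ rad3Δ and 1 in rif1Δ. By both strains' calls together, 17 genes were called in both, which is 81.0% of each strain's list, 4 in rif1Δ rad3Δ alone, 4 in rif1Δ alone and 7 in neither.

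The median over the 32 genes was 0.73 and 0.57 on the rif1Δ rad3Δ arrays and 0.62 and 0.67 on the rif1Δ arrays. Over all genes the array medians lay between -0.03 and 0.06. Strain means had a median of 0.61 over the set in rif1Δ rad3Δ, with a range of -0.22 to 1.99, and of 0.64 in rif1Δ, with a range of -0.31 to 1.42. Values were above 0 on all 4 arrays at 26 of the 32 genes, against 21.0% of all genes. The rif1Δ rad3Δ arrays spread the genes more widely, with an SD between genes of 0.49, against 0.35 in rif1Δ. Without replicate 1 of rif1Δ the median over the set in rif1Δ was 0.67, and without replicate 2 it was 0.62. Calls in rif1Δ were then lost across the set and became rare over all genes. The spread in those fits came from the rif1Δ rad3Δ arrays alone. With windows of 100 bp the rif1Δ count was 13 of the 29 genes that then had a probe. Of all 10324 genes, 300 were called above 0 with those windows.

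**Figure D1:**
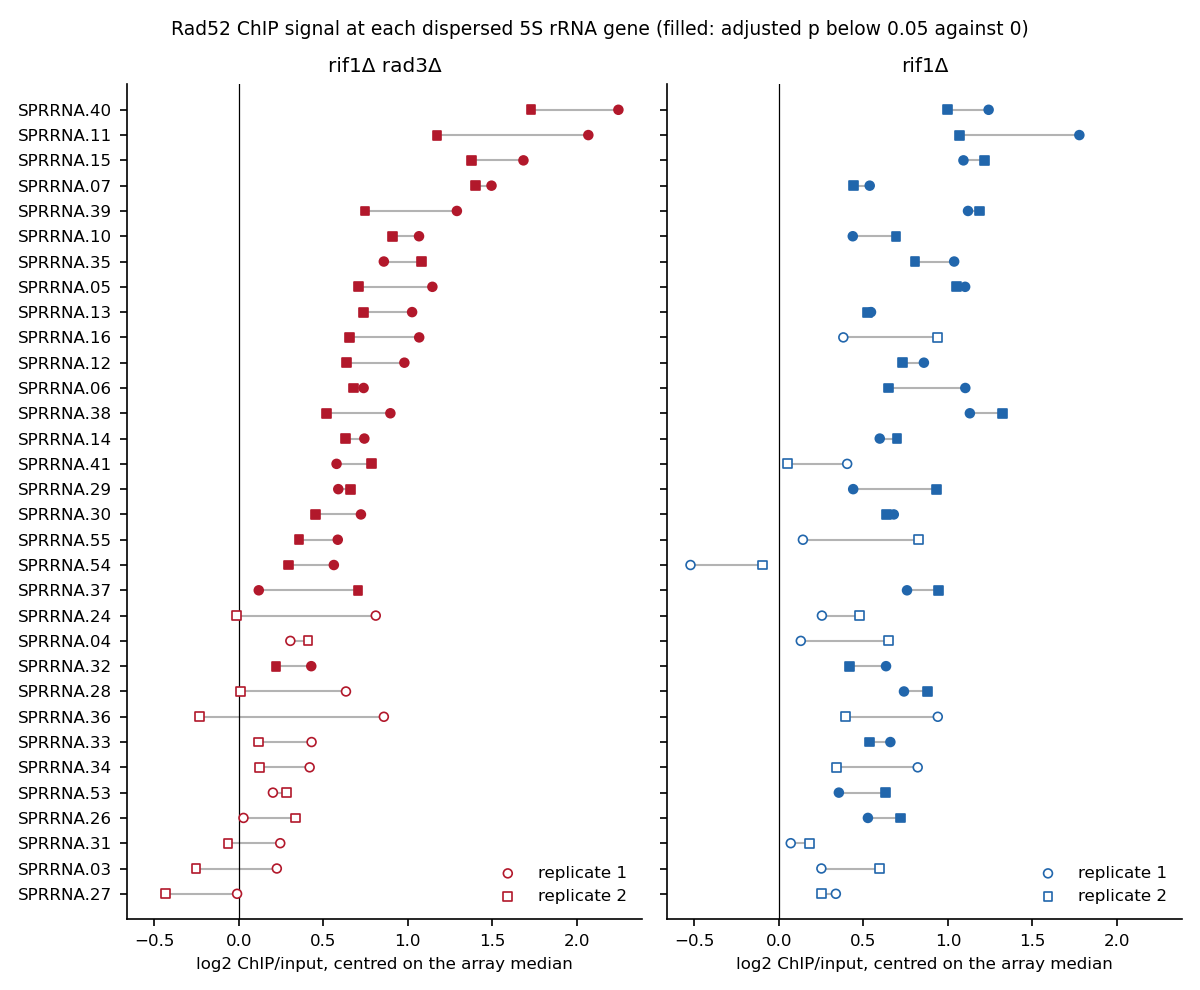
Each row is a dispersed 5S rRNA gene, ordered by its rif1Δ rad3Δ mean, and each point is the log2 of ChIP over input on 1 array (circle, replicate 1; square, replicate 2), with rif1Δ rad3Δ on the left and rif1Δ on the right. Filled points mark the 21 genes in each strain with an adjusted p below 0.05 against 0; SPRRNA.40, SPRRNA.11 and SPRRNA.15 stand at the top in rif1Δ rad3Δ, and SPRRNA.54 is the only gene with both rif1Δ values below 0.

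Of the 3 highest genes in rif1Δ rad3Δ, SPRRNA.11 was also among the 3 highest in rif1Δ. SPRRNA.40, which lies 68 bp from ucp3 on chromosome II, read 2.25 and 1.73 in rif1Δ rad3Δ and 1.24 and 0.999 in rif1Δ. Its means were 1.99 ± 0.37 (3.97-fold, adjusted p = 0.000368) in rif1Δ rad3Δ and 1.12 ± 0.17 (2.17-fold, adjusted p = 0.00721) in rif1Δ (SD, n = 2 arrays each; limma). SPRRNA.11, 285 bp from SPAC24H6.13 on chromosome I, read 2.07 and 1.17 in rif1Δ rad3Δ and 1.78 and 1.07 in rif1Δ. It was second in rif1Δ rad3Δ and first in rif1Δ, where its mean was 1.42 ± 0.50 (SD, n = 2). SPRRNA.15, 571 bp from pan3, whose product belongs to a poly(A) nuclease, read 1.69 and 1.38 in rif1Δ rad3Δ and 1.09 and 1.22 in rif1Δ.

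SPRRNA.38, beside crb2, the gene of a DNA damage checkpoint mediator, read 0.90 and 0.52 in rif1Δ rad3Δ and 1.13 and 1.32 in rif1Δ. SPRRNA.39, 177 bp from an asparagine tRNA gene and 313 bp from qcr1, read 1.29 and 0.75 in rif1Δ rad3Δ and 1.12 and 1.19 in rif1Δ. In rif1Δ these genes ranked next after SPRRNA.11, and at SPRRNA.38 the strains did not overlap, with rif1Δ rad3Δ lower.

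Dim probes carried a part of the highest values. Of the 73 probes, 65 were well above background in both channels of all 4 arrays, and each of the other 8 belonged to a different gene. At SPRRNA.11 the probe that reaches 10 bp into the gene, of 26.7% GC, had an input signal well above background on 1 of 2 arrays of each strain. That probe read 3.14 and 2.20 in rif1Δ rad3Δ and 2.95 and 1.36 in rif1Δ. The other probe of the gene read 0.99 and 0.15 in rif1Δ rad3Δ and 0.61 and 0.78 in rif1Δ. With probes well above background only, SPRRNA.11 averaged 0.57 in rif1Δ rad3Δ (limma, adjusted p = 0.0270) and 0.69 in rif1Δ (adjusted p = 0.0571), and its call in rif1Δ was lost. SPRRNA.35 also lost its rif1Δ call, at 0.35 (adjusted p = 0.0907), and kept the one in rif1Δ rad3Δ, at 0.38 (adjusted p = 0.0193). SPRRNA.40 kept both, at 1.94 in rif1Δ rad3Δ and 1.41 in rif1Δ. With those probes left out, the set was called at 22 genes in rif1Δ rad3Δ and 21 in rif1Δ, and the calls of a difference between strains changed too, as given with them.

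At the low end, SPRRNA.27, in the divergent gap between the proteasome gene rpt2 and maa1 on chromosome II, read -0.01 and -0.43 in rif1Δ rad3Δ and 0.34 and 0.25 in rif1Δ. SPRRNA.03, 180 bp from SPCC338.03C, read 0.23 and -0.25 in rif1Δ rad3Δ and 0.25 and 0.59 in rif1Δ. SPRRNA.31, between sim3, the gene of a chaperone for centromeric histone H3, and gyp1, read 0.25 and -0.06 in rif1Δ rad3Δ and 0.07 and 0.18 in rif1Δ. None of these 3 was called in either strain, although all carry the common core.

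The diverged genes were lowest in rif1Δ beside SPRRNA.31. SPRRNA.54, in the divergent gap between zuo1 and rap1, the gene of a telomere protein, read 0.56 and 0.29 in rif1Δ rad3Δ and -0.52 and -0.10 in rif1Δ. SPRRNA.41, between pob3, a subunit of the histone chaperone FACT, and rpl29, read 0.58 and 0.79 in rif1Δ rad3Δ and 0.40 and 0.05 in rif1Δ. Both were called enriched in rif1Δ rad3Δ and neither in rif1Δ.

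At 17 genes a probe overlapped the annotated gene itself, by 1 to 60 bp, and by 10 bp or more at 12 of them. The overlapping probes had a median of 0.81 and 0.68 on the rif1Δ rad3Δ arrays and 1.17 and 0.80 on the rif1Δ arrays. The other 56 probes had a median of 0.62 and 0.40 in rif1Δ rad3Δ and 0.59 and 0.64 in rif1Δ. The probes that touch a gene had the higher median on each array, and 14 of these 17 were above 0 on all 4 arrays, as were 36 of the other 56. Dim probes were 5 of the 17 and 3 of the 56. Without them the overlapping probes had a median of 0.69 and 0.56 in rif1Δ rad3Δ and 0.70 and 0.73 in rif1Δ. The others then had a median of 0.60 and 0.40 in rif1Δ rad3Δ and 0.58 and 0.65 in rif1Δ, so the gap was smaller on every array. It was not tested.

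The fullest overlap was at SPRRNA.32, annotated over 440 bp beside rar1, a methionyl-tRNA synthetase gene, where 1 probe lay wholly inside. The gene read 0.43 and 0.22 in rif1Δ rad3Δ and 0.63 and 0.42 in rif1Δ and was called in both. SPRRNA.35, between spb4 and SPBC24C6.03, with a 37 bp overlap, read 0.86 and 1.08 in rif1Δ rad3Δ and 1.04 and 0.80 in rif1Δ. SPRRNA.30, in the divergent gap between tre1 and def1, with a 22 bp overlap, read 0.72 and 0.45 in rif1Δ rad3Δ and 0.68 and 0.64 in rif1Δ. SPRRNA.14, between the exosome gene rrp41 and the translation initiation factor gene tif211, read 0.74 and 0.63 in rif1Δ rad3Δ and 0.60 and 0.70 in rif1Δ. At each of these 4 genes the ranges of the strains overlapped, and each was called in both strains.

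Another 6 genes with an overlapping probe were called in both strains. SPRRNA.29, near rlp1, read 0.59 and 0.66 in rif1Δ rad3Δ and 0.44 and 0.93 in rif1Δ. SPRRNA.12, near the SUMO ligase gene pli1, read 0.98 and 0.64 in rif1Δ rad3Δ and 0.86 and 0.73 in rif1Δ. SPRRNA.06 and SPRRNA.05 stand 11048 bp apart on chromosome III and are the closest 2 members and the only convergent ones. SPRRNA.06 read 0.74 and 0.68 in rif1Δ rad3Δ and 1.10 and 0.65 in rif1Δ. SPRRNA.05, near tef3, the gene of a translation elongation factor, read 1.15 and 0.71 in rif1Δ rad3Δ and 1.10 and 1.05 in rif1Δ. SPRRNA.37, 293 bp from the S-adenosylmethionine synthetase gene sam1, read 0.12 and 0.71 in rif1Δ rad3Δ and 0.76 and 0.95 in rif1Δ. The rif1Δ rad3Δ arrays at SPRRNA.37 lay apart from each other and both below the rif1Δ arrays. The sixth was SPRRNA.39, given above.

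SPRRNA.33, between pht1, the gene of histone H2A.Z, and shy1, read 0.43 and 0.12 in rif1Δ rad3Δ and 0.66 and 0.53 in rif1Δ, and it was called in rif1Δ alone. Like SPRRNA.31, which a probe touches by 1 bp, the next 2 genes were called in neither strain. SPRRNA.24, between the splicing genes prp11 and cwf23, read 0.81 and -0.01 in rif1Δ rad3Δ and 0.25 and 0.48 in rif1Δ. SPRRNA.36, between tda1 and the thiamine synthesis gene thi2, read 0.86 and -0.23 in rif1Δ rad3Δ and 0.94 and 0.39 in rif1Δ. At SPRRNA.24 and SPRRNA.36 the 2 rif1Δ rad3Δ arrays differed by more than the strains did. The 9 genes left over by the rule for array values include SPRRNA.28, which is given further on. These 9 had means of 0.18 to 0.99 in rif1Δ rad3Δ, with 4 called, and of 0.39 to 0.81 in rif1Δ, with 5 called.

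Signal was high at and beside the genes and declined on both sides. Probes centred within 125 bp of the midpoint, 19 probes at 18 genes, averaged 1.02 and 0.64 on the rif1Δ rad3Δ arrays and 0.94 and 0.73 on the rif1Δ arrays. In the 250 bp bin centred 1000 bp downstream, the mean was 0.53 and 0.37 in rif1Δ rad3Δ and 0.33 and 0.26 in rif1Δ. At 3000 bp downstream it was 0.08 and 0.22 in rif1Δ rad3Δ and 0.21 and 0.20 in rif1Δ. The bin at the midpoint was the highest of 25 on each array but 1, replicate 2 of rif1Δ rad3Δ, where the bin centred 250 bp upstream stood at 0.64 like the central one. Of the 19 central probes 5 were dim, and the other 14 averaged 0.73 and 0.35 in rif1Δ rad3Δ and 0.59 and 0.69 in rif1Δ. On the rif1Δ rad3Δ arrays that is below the bin 250 bp upstream, at 0.81 and 0.64 with all its probes. Further out, 500 bp upstream, the mean was 0.78 and 0.39 in rif1Δ rad3Δ, against 0.47 and 0.23 in rif1Δ. Downstream at 750 bp it was 0.66 and 0.40 in rif1Δ rad3Δ, against 0.34 and 0.22 in rif1Δ. At arm tRNA genes, 500 bp upstream, it was 0.63 and 0.39 in rif1Δ rad3Δ, against 0.31 and 0.13 in rif1Δ.

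**Figure D2:**
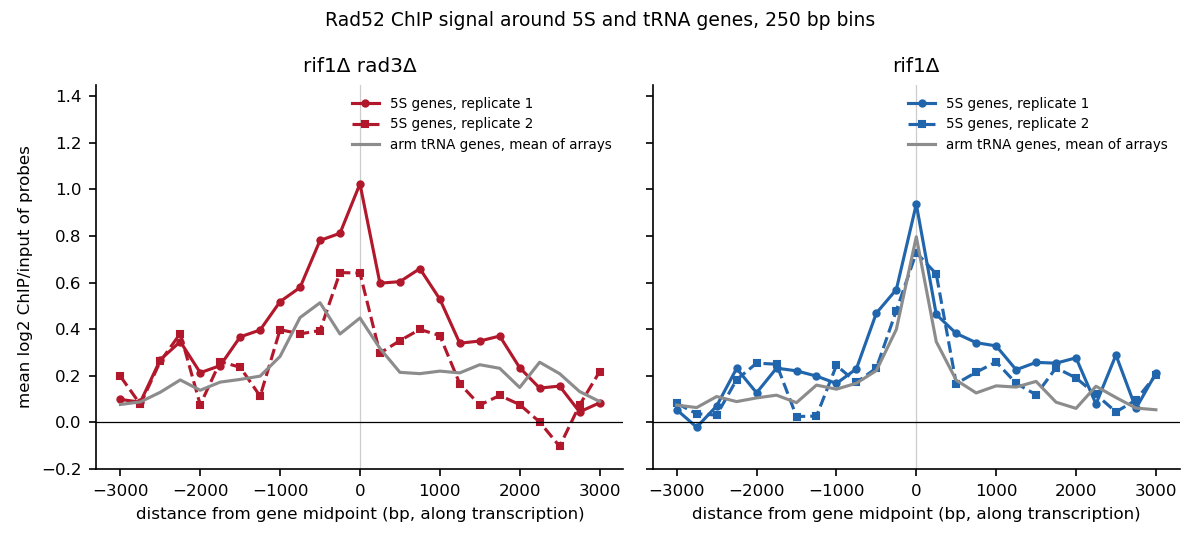
Mean log2 of ChIP over input of probes in 250 bp bins by distance from the gene midpoint along the direction of transcription, with rif1Δ rad3Δ on the left and rif1Δ on the right; coloured lines are the arrays for the 5S genes (solid, replicate 1; dashed, replicate 2) and the grey line is the array mean for tRNA genes on the arms. The 5S lines reach 1.02 and 0.64 in rif1Δ rad3Δ and 0.94 and 0.73 in rif1Δ at the midpoint, where 5 of 19 probes are dim.

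To set a gene against its own surroundings, the mean of probes 1000 to 3000 bp outside both edges was subtracted, which could be done at 31 genes (SPRRNA.53 had no such probes on a side). In rif1Δ rad3Δ this local excess was above 0 at 18 of 31 genes, where 17.2% of all genes were called, with a median of 0.49. In rif1Δ it was above 0 at 12 of 31, where 1.47% of all genes were called, with a median of 0.55. Medians over all genes were 0.01 in rif1Δ rad3Δ and -0.01 in rif1Δ. In both strains 10 genes were called, and 21 of 31 had an excess above 0 on all 4 arrays, against 16.1% of all genes. The rif1Δ rad3Δ count fell when either of its arrays was left out, as did the count over all genes. With fixed tiles in place of genes the rif1Δ count was 3, where 64 of all 15555 windows were called above 0. SPRRNA.40 had the largest excess in rif1Δ rad3Δ, at 1.93 and 1.76, against 1.38 and 0.98 in rif1Δ.

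A single gene was called with a local deficit, and it is named here after its values were seen. SPRRNA.28 lies 734 bp from met17, the homocysteine synthase gene, whose own window read 1.44 and 1.03 in rif1Δ rad3Δ and 1.80 and 1.73 in rif1Δ. SPRRNA.28 itself read 0.63 and 0.01 in rif1Δ rad3Δ and 0.74 and 0.88 in rif1Δ. Its local excess was -0.27 and -0.77 in rif1Δ rad3Δ (limma, adjusted p = 0.0245) and -0.41 and -0.16 in rif1Δ (adjusted p = 0.315). Scaling the arrays to a common spread ended the call, as did leaving out replicate 2 of rif1Δ rad3Δ.

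The other polymerase III class on the arrays, tRNA genes outside the centromeres, held 117 genes. Of these, 57 (48.7%) were called above 0 in rif1Δ rad3Δ, with a median of 0.33, and 48 (41.0%) in rif1Δ, with a median of 0.53. Small nuclear and nucleolar RNA genes, 63 in all, had 29 called in rif1Δ rad3Δ (median 0.37) and 23 in rif1Δ (median 0.47). Protein-coding genes had medians of 0.02 in rif1Δ rad3Δ and -0.02 in rif1Δ. The share called was thus higher among 5S genes than in each of these classes, as a count, and the difference between classes was not tested. For tRNA genes the median difference of rif1Δ rad3Δ minus rif1Δ was -0.23, with 4 genes called higher and 13 lower, where 20.2% of all genes differed. For 5S genes it was -0.05 in the main fit, but this depended on the processing. It was -0.23 with normexp background correction, -0.29 with arrays scaled to one spread and -0.21 with the GC trend removed. Without replicate 2 of rif1Δ rad3Δ it was 0.08. The tRNA median was not taken under these alternatives. U6 small nuclear RNA, snu6, also a polymerase III gene, read 0.66 and 0.08 in rif1Δ rad3Δ and 0.28 and 0.20 in rif1Δ and was not called.

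**Figure D3:**
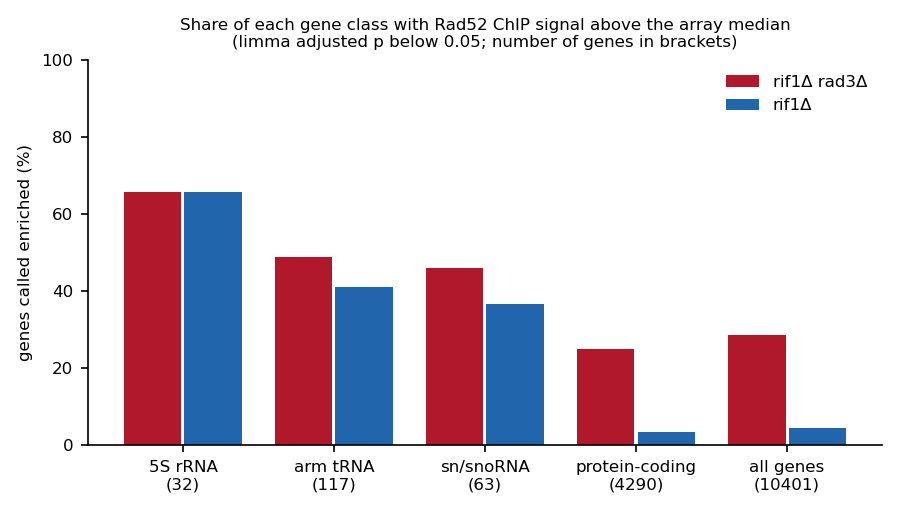
Bars give the percentage of each gene class called above 0 (limma, adjusted p below 0.05), rif1Δ rad3Δ in red to the left of rif1Δ in blue, with the number of genes in brackets. For 5S genes both bars stand at 65.6%; over all genes they stand at 28.7% in rif1Δ rad3Δ and 4.47% in rif1Δ.

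Of the 5S genes, 10 lie within 1000 bp of a tRNA gene, and 22 do not. Those without a tRNA gene nearby had a median of 0.65 in rif1Δ rad3Δ, with 16 called, and 0.55 in rif1Δ, with 13 called. Those with a tRNA gene nearby had a median of 0.47 in rif1Δ rad3Δ, with 5 called, and 0.66 in rif1Δ, with 8 called. Genes that have no tRNA gene within that distance were thus among those called. Their central bin averaged 1.01 and 0.64 in rif1Δ rad3Δ and 0.82 and 0.73 in rif1Δ. That bin holds dim probes at SPRRNA.11, SPRRNA.35 and SPRRNA.40, and its mean without them was not taken.

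By sequence, the 20 genes with the common core had a median of 0.43 in rif1Δ rad3Δ, with 11 called, and 0.59 in rif1Δ, with 12 called. The 10 genes with 1 to 3 changed bases had a median of 0.87 in rif1Δ rad3Δ, with 8 called, and 0.89 in rif1Δ, with 9 called. Among these, SPRRNA.11, SPRRNA.35 and SPRRNA.40 rest partly on dim probes, as do SPRRNA.32, SPRRNA.36, SPRRNA.06 and SPRRNA.07 with the common core. Without dim probes SPRRNA.11 averaged 0.69 and SPRRNA.35 0.35 in rif1Δ, and neither was called there. The group medians without dim probes were not taken. In rif1Δ rad3Δ genes of identical core ranged from SPRRNA.27, the lowest of the 32, to SPRRNA.07, the fourth highest. Where TATA stood upstream, 18 of 25 genes were called in rif1Δ rad3Δ and 19 of 25 in rif1Δ. Without it, 3 of 7 were called in rif1Δ rad3Δ and 2 of 7 in rif1Δ.

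By position, 7 of the 8 genes on chromosome I were called in each strain, with a median of 0.87 in rif1Δ rad3Δ and 0.65 in rif1Δ. On chromosome II 10 of 16 were called in each, and on chromosome III 4 of 8 in each. Genes that lie tandem to their neighbours had 15 of 20 called in rif1Δ rad3Δ and 14 in rif1Δ, those in divergent gaps 4 of 10 in rif1Δ rad3Δ and 5 in rif1Δ, and both convergent genes were called in both strains. No 5S gene overlapped a protein-coding gene. These subsets share genes and were not tested against each other.

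Few 5S genes differed between strains. The difference of rif1Δ rad3Δ minus rif1Δ passed at 3 of 32 genes, where 20.2% of all genes passed in either direction. These 3 were higher in rif1Δ rad3Δ, but the split depended on the processing, with 1 higher and 3 lower under normexp background correction, 3 and 3 with the GC trend removed, 5 and 4 with a replicate block, and 1 and 2 without replicate 1 of rif1Δ rad3Δ. The share of 5S genes is below that of all genes, but 5S windows held a median of 2 probes, against 5 over all genes. With tiles in place of genes, also of a median of 2 probes, 2 of 32 5S genes passed. Of all 15689 windows then tested, 867 were higher and 444 lower in rif1Δ rad3Δ. The part of probe number in the low share was not tested. In the main fit, 7 of the set were higher and 3 lower at an unadjusted p below 0.05. Differences ran from -0.52 to 0.96 with a median of -0.05, and over all genes the median was 0.02. The 95% intervals had a median half-width of 0.40, and for 28 genes the whole interval lay between -1 and 1. Arrays of the strains did not overlap at 15 genes, 7 higher and 8 lower in rif1Δ rad3Δ, against 66.6% of all genes.

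SPRRNA.07, 264 bp from dpe2 on chromosome III, read 1.496 and 1.40 in rif1Δ rad3Δ and 0.54 and 0.44 in rif1Δ. Its difference was 0.96 ± 0.13 (SE; adjusted p = 0.00928, limma). SPRRNA.40, given above, differed by 0.87 ± 0.20 (SE; adjusted p = 0.0265). The diverged gene SPRRNA.54 differed by 0.74 ± 0.18 (SE; adjusted p = 0.0339). SPRRNA.38 had the largest difference in the other direction, at -0.52 ± 0.17 (SE; adjusted p = 0.0678), and did not pass. It passed with a replicate block (adjusted p = 0.0311) and under 3 other alternatives, with adjusted p from 0.0289 to 0.367 over all of them (limma).

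Each of the 3 calls rested in part on a probe that could also bind elsewhere. Of the 73 probes, 4 had another match of 40 or more bases in the genome, and they lay at SPRRNA.35, SPRRNA.40, SPRRNA.54 and SPRRNA.07. At SPRRNA.07 the probe 339 bp upstream of the midpoint, of 16.7% GC, had no input signal well above background on any array and no ChIP signal well above background in rif1Δ. It read 0.68 and 2.44 in rif1Δ rad3Δ and -0.70 and -0.59 in rif1Δ, and these ratios are bounds at best. At SPRRNA.54 the probe over 53 bp of the gene matched 12 other places. That probe read 0.71 and 0.65 in rif1Δ rad3Δ and -0.93 and 0.03 in rif1Δ.

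With such probes left out the differences were 0.54 at SPRRNA.07 (adjusted p = 0.130), 0.53 at SPRRNA.40 (adjusted p = 0.104) and 0.54 at SPRRNA.54 (adjusted p = 0.0583), and none passed (limma). With probes well above background only, SPRRNA.07 (0.54, adjusted p = 0.109) and SPRRNA.40 (0.53, adjusted p = 0.0861) lost the call, SPRRNA.54 kept it, and SPRRNA.41 gained one, at 0.57 (adjusted p = 0.0273). Over all alternatives the adjusted p ran from 0.00132 to 0.338 at SPRRNA.07, from 0.00235 to 0.315 at SPRRNA.40 and from 0.0115 to 0.157 at SPRRNA.54. The direction was the same in every alternative tried at these 3 genes. Leaving out either rif1Δ array ended all 3 calls, with 6 members at an unadjusted p below 0.05 without replicate 1 and 5 without replicate 2, and limma then called 0 genes over the whole table. The spread then came from the rif1Δ rad3Δ arrays alone, the lone rif1Δ array being assumed to vary like them. The differences without replicate 1 and without replicate 2 were 1.01 and 0.91 at SPRRNA.07, 0.99 and 0.75 at SPRRNA.40, and 0.52 and 0.95 at SPRRNA.54.

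The nearest coding genes did not pass, with 0.45 at dpe2, 264 bp from SPRRNA.07 (adjusted p = 0.293), and 0.18 at ucp3, 68 bp from SPRRNA.40 (adjusted p = 0.498). The genes on the other side did. SPCC965.13, 3179 bp from SPRRNA.07, differed by 0.88 ± 0.14 (SE; adjusted p = 0.0124), and fnx1, an amino acid transporter gene 1442 bp from SPRRNA.40, by 0.64 ± 0.13 (SE; adjusted p = 0.0221). Neither zuo1 nor rap1, beside SPRRNA.54, passed. In local excess, the differences were 0.38 at SPRRNA.07 (adjusted p = 0.277), 0.66 at SPRRNA.40 (adjusted p = 0.0608) and 0.72 at SPRRNA.54 (adjusted p = 0.0539). A single gene passed on that measure, where 6.7% of all genes did. It was SPRRNA.03, lower in rif1Δ rad3Δ at -0.01 and -0.33, against 0.49 and 0.85 in rif1Δ, a difference of -0.83 ± 0.18 (SE; limma, adjusted p = 0.0416), named after its values were seen. This difference in local excess at SPRRNA.03 was -0.50 between the replicate 1 arrays and -1.17 between the replicate 2 arrays. It was no longer called when either rif1Δ rad3Δ array was left out, a fit in which the lone array gives no spread of its own.

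**Figure D4:**
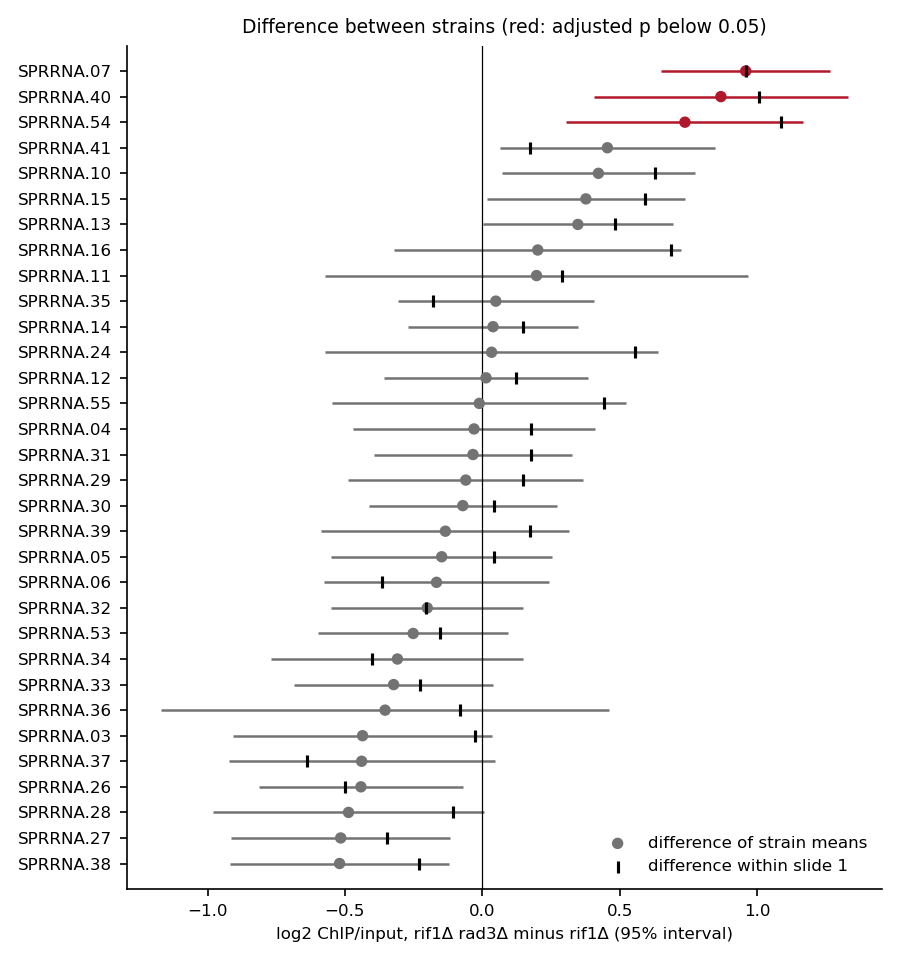
Each row is a 5S gene with the difference of log2 ChIP over input, rif1Δ rad3Δ minus rif1Δ (dot), its 95% interval from the limma fit (line) and the difference between the 2 arrays on slide 1 (black tick). Red marks SPRRNA.07 at 0.96, SPRRNA.40 at 0.87 and SPRRNA.54 at 0.74; the other 29 genes did not pass.

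Within slide 1, which held replicate 1 of both strains, the difference had a median of 0.13 over the 32 genes and was above 0 at 19. Between the replicate 2 arrays, on slides 2 and 3, the median was -0.24 and 10 genes were above 0. Both array pairs gave the same sign at 19 of 32 genes. Within slide 1 SPRRNA.07 differed by 0.96, SPRRNA.40 by 1.01 and SPRRNA.54 by 1.09, with no test. A fit with the slide as a term left no residual degrees of freedom.

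**Figure D5:**
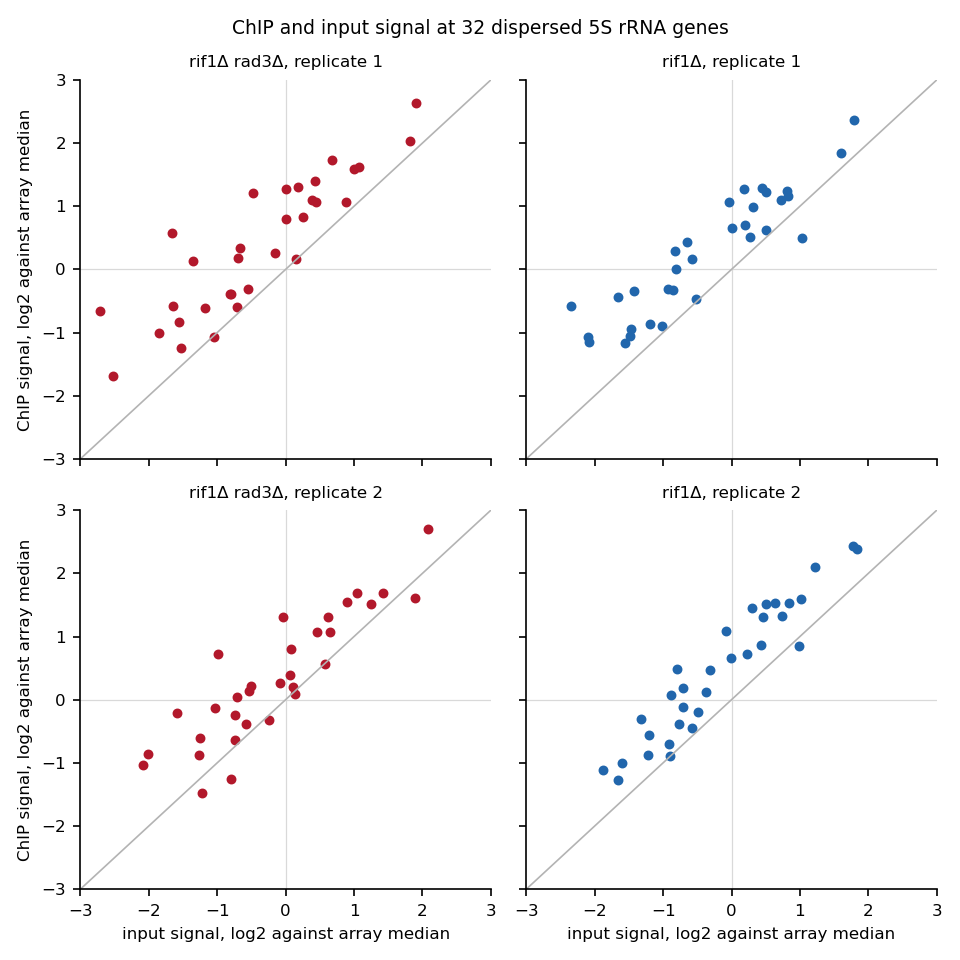
Each point is a 5S gene on 1 array, with its input signal (x) and ChIP signal (y) as log2 against that channel's array median, rif1Δ rad3Δ in the left column and rif1Δ in the right; the grey diagonal is equal signal. Input spans -2.71 to 2.09, 25 of the 32 genes lie above the diagonal on all 4 arrays, and 18 or 19 lie left of 0 on each array.

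Read by channel, the ratio came from both signals. ChIP signal at the 5S genes had a median of 0.30 and 0.21 above the array median (log2) in rif1Δ rad3Δ and 0.36 and 0.47 in rif1Δ. Input signal had a median of -0.51 and -0.16 in rif1Δ rad3Δ and -0.55 and -0.34 in rif1Δ. ChIP exceeded input at 25 of 32 genes on all 4 arrays, which restates the ratio. Alone, ChIP was called above its median at 14 genes and below at 9 in rif1Δ rad3Δ (limma; all genes 32.9% and 31.8%). In rif1Δ it was above at 16 and below at 10 (all genes 23.8% and 31.35%). Input was above at 10 and below at 16 in each strain. Over all genes those input shares were 32.8% and 34.2% in rif1Δ rad3Δ and 31.2% and 35.6% in rif1Δ. The 73 probes had a median GC content of 35%, against 36.7% for all probes, and across the 32 genes GC correlated with the ratio at r = -0.39 and -0.11 in rif1Δ rad3Δ and -0.42 and -0.05 in rif1Δ. These correlations are over genes on shared arrays and are descriptive. With a GC trend removed, 20 genes in rif1Δ rad3Δ and 22 in rif1Δ were called, and the part of probe brightness in the enrichment was not tested.

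The order of the genes was partly shared between arrays. Across the 32 genes the rif1Δ rad3Δ arrays correlated at r = 0.78 and the rif1Δ arrays at r = 0.66, and arrays of different strains at 0.48 to 0.62. Over all genes the same values were 0.86 in rif1Δ rad3Δ, 0.67 in rif1Δ and 0.33 to 0.45 between strains. Genes are not independent replicates, so no test is attached.

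The coding genes on either side were lower than the 5S genes. Of 63 flanking genes, 23 were called above 0 and 4 below in rif1Δ rad3Δ, with a median of 0.20, and 9 above and 0 below in rif1Δ, with a median of 0.13. Over all genes 28.7% were called above 0 in rif1Δ rad3Δ and 4.47% in rif1Δ. Some of these windows share probes with a 5S gene. Between strains 6 were higher and 4 lower in rif1Δ rad3Δ, where 20.2% of all genes differed.

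Genes that encode the transcription machinery and partners of 5S rRNA were read at their own loci. Of 24 listed genes for polymerase III, its factors and its regulators, 21 had a value. In rif1Δ rad3Δ 5 were called above 0, where 28.7% of all genes were, and 5 below, with a median of -0.05, and in rif1Δ limma called 0 either way, with a median of -0.07. Between strains 2 were higher and 2 lower, close to the 20.2% of all genes that differed, so the count shows nothing about the list. The TFIIIB subunit gene bdp1 differed by 0.73 ± 0.20 (SE; adjusted p = 0.0438) and the polymerase subunit gene rpc34 by 0.55 ± 0.15 (SE; adjusted p = 0.0435). The TFIIIC subunit gene sfc9 differed by -0.62 ± 0.13 (SE; adjusted p = 0.0220) and the polymerase subunit gene rpc37 by -0.55 ± 0.14 (SE; adjusted p = 0.0341). Of 6 listed genes for proteins that bind or assemble with 5S rRNA, 5 had a value and 1 differed, again near the share of all genes. That gene was rpl1101, for ribosomal protein L11, at -0.78 and -0.97 in rif1Δ rad3Δ and 0.20 and 0.12 in rif1Δ (difference -1.03 ± 0.14, SE; limma, adjusted p = 0.00916). Its paralogue rpl1102 read 0.17 and 0.41 in rif1Δ rad3Δ and 0.37 and 0.31 in rif1Δ. No sfc6 difference passed, the TFIIIC gene that lies 695 bp from SPRRNA.34.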

How the data were processed

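Each array compared ChIP with input DNA, although the labels' extraction and labelling protocols speak of RNA; how Rad52 was precipitated is not given in the sources used here. The deposited processed signals are intensities that the authors' scanner software, Agilent Feature Extraction 10.7.3.1, had background-subtracted and dye-normalized, per the file headers. The deposited log10 ratio is Cy5 over Cy3, which is input over ChIP, and served as a check of direction. The authors' value table holds the linear ratio of ChIP over input with medians of 0.967 to 1.01.

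With control and outlier spots left out, 42548 spots remained, of which 36337 lay in the regions used, 60 bases long at a median spacing of 264 bp, and 49 of these, in rif1 and rad3, were then dropped. The right part of chromosome I was not analysed here, since probe coordinates there were shifted by 6140 bp against ASM294v3. Log2 ratios were centred on the median of each array and averaged over probes within 250 bp of a gene. limma 3.58.1 in R 4.3.3 fitted strain means over all 10401 genes on 4 arrays, with Benjamini-Hochberg adjustment and a threshold of 0.05. The number of arrays limits the precision. This fit of levels was tested on simulated data, for the difference between strains only. The same fit was made on local excess for 10269 genes. Other probe matches were found with BLAST+ 2.17.0.

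Array values were given for the 3 highest and 3 lowest genes of each strain, those that differed, the 4 largest differences and those with an overlapping probe. The members and gene lists were chosen with earlier results of these data known. Alternatives changed the background correction, normalization, centring, GC trend, dim probes, window, tiles, replicate block and replicates.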

Additional observations from a re-analysis of the deposited data

How the results depend on the processing

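Calls of enrichment in rif1Δ rad3Δ, 21 of 32, kept within 1.5 times of that count under all 20 alternatives, at 16 to 27, and at 18 to 21 with an array left out. Enrichment in rif1Δ, also 21, was 13 with 100 bp windows, 13 with tiles and 13 of 22 with 5S genes near a tRNA gene left out, which has fewer genes, and 0 to 24 with an array left out. The count of genes that differed, 3, was 1 with mode centring, 6 with the GC trend removed, 0 with 100 bp windows (9 at an unadjusted p below 0.05, limma), 7 with 500 bp windows, 1 without overlapping probes, 0 without probes matching elsewhere (9 unadjusted; chosen after seeing the data) and 0 to 4 with an array left out. Local excess in rif1Δ rad3Δ, 18, was called at fewer genes when either of its own arrays was left out, as over all genes. In rif1Δ, 12, local excess was called at 3 with tiles, where 64 of all 15555 windows were called above 0. The difference in local excess, 1, was 2 with normexp, 5 with loess, 0 with arrays scaled to one spread (7 unadjusted) and 4 with the GC trend removed. It was 4 with probes well above background, 2 with 500 bp windows and 0 with tiles (6 unadjusted). With an array left out this count moved too. The causes were not tested.

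The labels do not say that replicate numbers pair the arrays, and same-numbered arrays deviated together at r = 0.33. With 2 arrays per strain this is 1 value, the same for both numbers by construction. Replicate 1 of both strains shared slide 1, and the part of the slide in this value was not tested. With a replicate block 27 genes were called in rif1Δ rad3Δ and 26 in rif1Δ, 9 differed, local excess was called at 22 in rif1Δ rad3Δ and 21 in rif1Δ, and 7 differed in it.

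Signs turned at levels near 0. In rif1Δ rad3Δ, SPRRNA.31 was -0.0192 with normexp, -0.0976 with 100 bp windows and -0.0633 to 0.2456 with an array left out. SPRRNA.36 was -0.0113 with normexp, -0.0737 with probes well above background, -0.0737 without overlapping probes and -0.2338 to 0.8589 with an array left out. SPRRNA.24 was -0.2651 with 100 bp windows and -0.0142 to 0.8109 with an array left out. SPRRNA.03 was 0.0005 with arrays scaled, 0.1115 with 100 bp windows, 0.1413 with 500 bp windows and -0.2528 to 0.2254 with an array left out. In rif1Δ, SPRRNA.31 was -0.0652 with 500 bp windows, and SPRRNA.41 was -0.0924 with probes well above background and -0.0421 with 500 bp windows. Dim signals limit the ratio at 8 of the 73 probes.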
